A study of Mus musculus with 4 samples.

Results

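The 10 genes studied here belong to the cellular response to low oxygen, and their RNA was measured in cultured mouse spleen cells with and without the kinase inhibitor imatinib: Hif1a, Ndrg1, Slc16a3, Car9, P4ha1, P4ha2, Vegfa, Adm, Egln3 and Bnip3. They were chosen by name, as every non-control probe whose gene name in the scanner files is 1 of these 10. The list of names was set with earlier results of these data known. All 10 genes were on the array, with 16 of its 39429 probes. The cells were splenocytes of female C57BL/6 mice aged 8 weeks, cultured for 72 h. Both groups received IL-4 and LPS, a stimulus for B cells. In the imatinib group 10 µM imatinib was present, and in the control group it was absent. Imatinib inhibits the tyrosine kinases ABL, KIT and PDGFR. There were 2 arrays in each group. No label says that they came from separate mice or cultures, so the p-values measure only the spread between these samples, which may be technical. The oxygen tension of the cultures is not given in the sources used here.

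In cells with enough oxygen, prolyl hydroxylases of the Egln family mark the protein HIF-1 alpha, the product of Hif1a, and the VHL ubiquitin ligase then removes it. When oxygen is short the protein is kept, pairs with ARNT and binds a short DNA element with the core ACGTG or GCGTG near its target genes. Those targets raise glycolysis and lactate export, buffer pH, build collagen, recruit vessels and remove mitochondria. In activated lymphocytes and macrophages the same factor also accumulates without a shortage of oxygen, so the level of its targets is not a measure of oxygen alone.

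The 250 bases before the start site were read for the members from RefSeq (build GRCm38.p6), which matched 9 of the 10 genes, all but Ndrg1, with 10 entries. Both cores were searched on both strands. The 250 bases were settled on after matches in the longer RefSeq entries had been seen, to leave out bases after the start site of the same entry. At least 1 of the cores was present in 9 of the 10 entries, as against 38.6% of 32851 promoters of the same length. ACGTG alone was present in 16.6% of all promoters and GCGTG in 28.2%. The palindrome CACGTG, which other factors also bind, contains ACGTG on both strands and was found in Hif1a and Bnip3 (6.02% of all promoters). A match is a description of the letters and not a bound site. The 5 windows below are shown because they belong to 4 genes that rose and to Hif1a, which did not pass the test, and capitals mark the letters of either core on either strand.
Slc16a3, chr11:120948817-120949066, plus strand: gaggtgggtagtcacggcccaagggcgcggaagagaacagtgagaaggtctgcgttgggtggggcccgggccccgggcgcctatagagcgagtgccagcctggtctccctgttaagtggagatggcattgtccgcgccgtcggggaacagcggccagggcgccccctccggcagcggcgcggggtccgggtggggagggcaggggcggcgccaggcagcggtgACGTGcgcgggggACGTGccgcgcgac
Car9, chr4:43506776-43507025, plus strand: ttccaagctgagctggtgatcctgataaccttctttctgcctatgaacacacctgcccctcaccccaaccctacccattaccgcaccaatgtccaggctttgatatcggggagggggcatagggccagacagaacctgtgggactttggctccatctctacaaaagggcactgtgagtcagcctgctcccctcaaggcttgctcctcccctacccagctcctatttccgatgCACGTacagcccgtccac
P4ha2, chr11:54100674-54100923, plus strand: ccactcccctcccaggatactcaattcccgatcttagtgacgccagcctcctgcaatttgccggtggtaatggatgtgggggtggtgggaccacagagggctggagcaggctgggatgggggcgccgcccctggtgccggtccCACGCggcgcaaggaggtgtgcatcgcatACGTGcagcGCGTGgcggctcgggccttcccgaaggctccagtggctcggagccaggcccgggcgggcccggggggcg
Bnip3, chr7:138909507-138909756, minus strand: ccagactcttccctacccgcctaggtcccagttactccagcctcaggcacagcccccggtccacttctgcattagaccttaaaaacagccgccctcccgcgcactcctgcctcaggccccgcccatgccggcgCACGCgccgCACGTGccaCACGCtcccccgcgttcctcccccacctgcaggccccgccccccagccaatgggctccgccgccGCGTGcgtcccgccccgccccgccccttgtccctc
Hif1a, chr12:73907617-73907866, plus strand: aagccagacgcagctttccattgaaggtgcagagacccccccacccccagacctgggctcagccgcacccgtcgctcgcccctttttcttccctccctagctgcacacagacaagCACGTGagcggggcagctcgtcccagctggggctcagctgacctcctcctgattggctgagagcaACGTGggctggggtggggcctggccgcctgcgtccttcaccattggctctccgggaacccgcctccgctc
In Slc16a3 the 2 copies of ACGTG began 27 and 14 bases before the start, and in Car9 the single copy, on the opposite strand, lay with its first letter 18 bases before it. P4ha2 had 3 separate stretches of either core and Bnip3 had 4, the palindrome among them. Hif1a also had 2 stretches, so the presence of the letters did not separate it from the genes that rose. The first Vegfa entry (chr17:46032378-46032627, minus strand) had neither core. The second (chr17:46025164-46025413, minus strand) had both and is counted above among the entries with a core. It lies downstream of the first, inside the gene, so its letters may be transcribed from the first start.

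Of the 10 genes, 8 rose with imatinib and none fell, each gene being judged by its brightest probe. All 10 passed the filter on dim probes. Among all 20499 genes tested, 41.6% were called, with 18.8% higher and 22.8% lower. The median log2 difference over the 10 genes was 0.98, and over all genes it was 0. Because the 10 genes were chosen with earlier results known, these comparisons describe them and are not a test of hypoxia genes. At least 2-fold rises were seen in 5 of the 10 genes (6.13% of all genes), but this count depended on the processing. With normexp background correction Car9, P4ha2 and Vegfa were at 0.87, 0.53 and 0.97, under the 1 log2 unit of a 2-fold rise. Spike-in scaling put P4ha2 and Vegfa at 0.93 and 0.77. Of all probes, 1500 rose at least 2-fold, as against 654 with normexp and 1123 with spike-in scaling. For 15 of the 16 probes both imatinib signals lay on the same side of both control signals, which was also true of 73.4% of all probes tested. By probe, 14 of the 16 were called, all higher, as against 42.4% of all probes called (18.7% higher and 23.7% lower). These calls come from limma with a Benjamini-Hochberg adjusted p under 0.05 over 25375 probes. The count of genes that rose was 8 or 9 under each of 14 alternative settings, and with spike-in scaling 1 gene, Hif1a, fell.

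**Figure D1:**
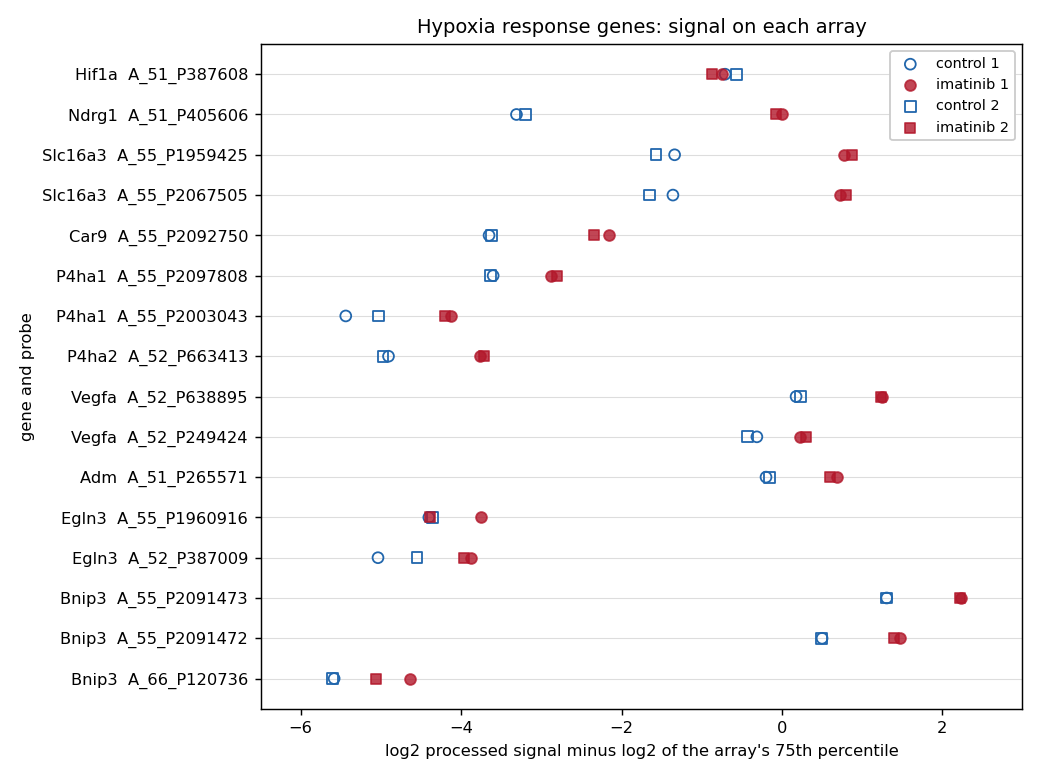
Normalised log2 signal (x axis, with the array's 75th percentile at 0) of each of the 16 probes of the 10 genes (y axis) on the 4 arrays, with imatinib arrays filled and control arrays open. Ndrg1 and Slc16a3 show the widest separation, and the Hif1a and first Egln3 rows have the points of both groups close together.

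Every value that follows is a log2 signal with the 75th percentile of its array at 0, and a difference is imatinib minus control. Hif1a encodes the oxygen-regulated subunit of the transcription factor. It read -0.75 and -0.87 with imatinib and -0.71 and -0.57 without. Both imatinib values lay below both control values, but the gap was small. The difference of -0.17 (SE 0.086, 95% interval -0.41 to 0.065) did not pass (adjusted p = 0.18), and it reached -0.34 under median centring (adjusted p = 0.060) and -0.44 with spike-in scaling (adjusted p = 0.024).

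Egln3, the hydroxylase that HIF itself induces, was measured by 2 dim probes. Both differences were positive with overlapping 95% intervals, but only 1 probe passed. The brighter one, A_55_P1960916, read -3.76 and -4.39 with imatinib and -4.40 and -4.36 without. The groups overlapped, and imatinib 1 stood apart from the other 3 arrays. Its difference of 0.31 (SE 0.23, 95% interval -0.32 to 0.94) did not pass (adjusted p = 0.34), becoming -0.0037 without imatinib 1 and 0.63 without imatinib 2 (adjusted p = 0.041). With normexp background correction the difference was smaller, 0.22, and its adjusted p was 0.048. The other probe, A_52_P387009, read -3.87 and -3.97 with imatinib and -5.04 and -4.55 without. It rose by 0.87 (SE 0.18, 95% interval 0.37 to 1.38, adjusted p = 0.026). It no longer passed when imatinib 1 (adjusted p = 0.098) or imatinib 2 (0.083) was left out, under quantile normalization (0.071) or when dim probes were kept (0.083). The size was 0.38 with normexp.

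Both secreted members rose. Vegfa encodes vascular endothelial growth factor A, the main signal for vessel growth. On its brighter probe, A_52_P638895, the signal was 1.25 and 1.24 with imatinib and 0.18 and 0.23 without. Arrays of a group lay close together, and the rise was 1.04 (SE 0.059, 2.06-fold, adjusted p = 0.0017). The second probe, A_52_P249424, read 0.22 and 0.30 with imatinib and -0.31 and -0.42 without. It rose by 0.63 (SE 0.074, adjusted p = 0.0073). Leaving out imatinib 2 ended this call (adjusted p = 0.051), and the size was 0.36 with spike-in scaling. The 95% intervals of the 2 Vegfa probes, 0.88 to 1.20 and 0.42 to 0.83, did not meet, and the difference between the probes was not tested. Their sequences share no run longer than 6 bases, and the files list them under different RefSeq transcripts.

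Adm encodes adrenomedullin, a peptide that widens vessels and is also made by macrophages. Its probe read 0.68 and 0.60 with imatinib and -0.20 and -0.16 without. All imatinib values were above all control values. Adm rose by 0.82 (SE 0.066, 1.76-fold, adjusted p = 0.0034), and between 0.55 and 0.86 over the alternative settings.

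Both genes of lactate and acid handling rose. Slc16a3 encodes MCT4, the transporter that exports lactate from glycolytic cells. Probe A_55_P1959425 read 0.77 and 0.88 with imatinib and -1.34 and -1.57 without. The group means were 0.83 ± 0.078 and -1.45 ± 0.16 (SD, n = 2 arrays each). The rise of 2.28 (SE 0.11, 4.85-fold) passed with an adjusted p of 0.0012. The other Slc16a3 probe, A_55_P2067505, read 0.73 and 0.79 with imatinib and -1.36 and -1.65 without. It rose by 2.26 (SE 0.12, adjusted p = 0.0014), but a run of 53 of its 60 bases is also in the first probe, so it repeats that measurement.

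Car9 encodes carbonic anhydrase IX, a membrane enzyme that acidifies the outside of the cell and is widely used as a marker of hypoxia. Its probe read -2.16 and -2.34 with imatinib and -3.65 and -3.62 without. The control arrays agreed closely and lay well below both imatinib arrays. Car9 rose by 1.39 (SE 0.085, 2.62-fold, adjusted p = 0.0020). The probe was dim, with a raw spot signal 1.95 and 2.02 times the local background on the control arrays and 3.70 and 3.61 times on the imatinib arrays. Its difference shrank to 0.87 with normexp background correction and still passed (adjusted p = 4.4e-07). The normexp fit estimates its own variances, so its adjusted p-values, here and for other probes, are not comparable with the main ones.

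P4ha1 and P4ha2 encode the alternative catalytic subunits of collagen prolyl 4-hydroxylase, which stabilises the collagen helix. The brighter P4ha1 probe, A_55_P2097808, read -2.88 and -2.81 with imatinib and -3.60 and -3.64 without. It rose by 0.78 (SE 0.063, adjusted p = 0.0035), or 0.47 with normexp and 0.51 with spike-in scaling, and its raw signal was 2.16 to 2.78 times the local background. The second P4ha1 probe, A_55_P2003043, read -4.12 and -4.20 with imatinib and -5.44 and -5.03 without, a wider spread between controls. Its rise of 1.07 (SE 0.16, adjusted p = 0.011) came to 0.43 with normexp, and it did not pass without imatinib 1 (adjusted p = 0.055) or without imatinib 2 (0.050).

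P4ha2 read -3.77 and -3.72 with imatinib and -4.91 and -4.98 without. It rose by 1.20 (SE 0.064, 2.29-fold, adjusted p = 0.0015), with 0.53 under normexp (adjusted p = 3.4e-05). Both P4ha genes were thus higher on both imatinib arrays. P4hb, which encodes the beta subunit shared by these enzymes and also acts as protein disulfide isomerase, went the other way. It read 2.68 and 2.71 with imatinib and 3.32 and 3.28 without, and fell by 0.60 (SE 0.059, adjusted p = 0.0051). P4hb was singled out after its value was seen.

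Bnip3 encodes a mitochondrial outer membrane protein that promotes mitophagy. Its brightest probe, A_55_P2091473, read 2.23 and 2.22 with imatinib and 1.31 and 1.31 without. Replicates were nearly identical here. It rose by 0.92 (SE 0.056, 1.89-fold, adjusted p = 0.0020). The second probe, A_55_P2091472, at 1.47 and 1.40 against 0.50 and 0.50, rose by 0.93 (SE 0.061, adjusted p = 0.0023), and the 2 share no run of over 7 bases. The third, A_66_P120736, was dim, at 1.14 to 1.43 times the local background. It read -4.64 and -5.07 with imatinib and -5.58 and -5.60 without. Its difference of 0.74 passed (SE 0.16, adjusted p = 0.028). It no longer passed when imatinib 1 (adjusted p = 0.051), control 1 (0.090) or control 2 (0.10) was left out, nor under quantile normalization (0.10), spike-in scaling (0.058) or with dim probes kept (0.090). The size was 0.27 with normexp and 0.47 with spike-in scaling.

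Ndrg1, a cytoplasmic stress and differentiation protein induced by hypoxia and by other signals, had the largest difference of the 10 genes. It read -0.0040 and -0.075 with imatinib and -3.31 and -3.20 without. In the processed signal of the scanner this is 644.5 and 596.9 units against 68.4 and 85.36. The imatinib arrays were far above the controls, and the rise of 3.21 (SE 0.073, 9.27-fold, adjusted p = 0.00068) was 2.38 with normexp. The raw spot signal was dim on the control arrays, at 1.85 and 2.65 times the local background, and 11.2 and 11.3 times on the imatinib arrays. Only 1 probe measured Ndrg1.

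**Figure D2:**
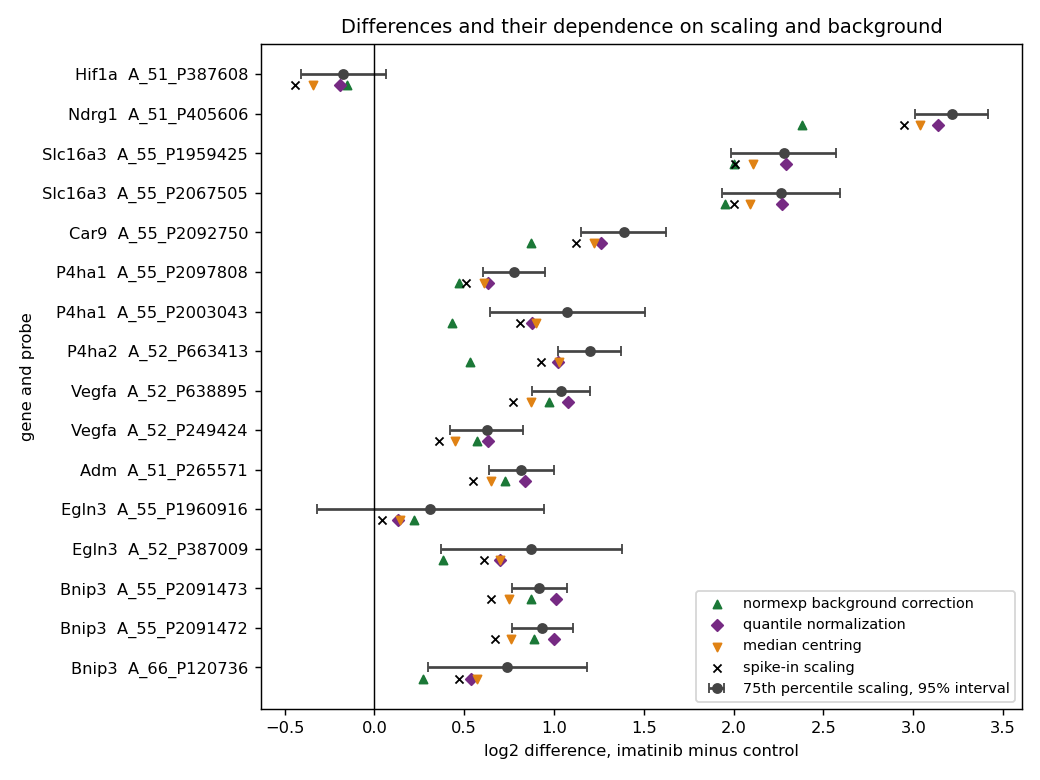
Log2 difference, imatinib minus control (x axis), of each of the 16 probes (y axis), with the 95% interval from limma (circles and bars) and the difference under 4 other ways of processing (small symbols). The intervals of 14 probes lie above 0, and those of Hif1a and the first Egln3 probe include 0. Among others, normexp gives smaller values for Ndrg1 and for the dim Car9, P4ha1 and P4ha2 probes.

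Scaling moved all differences together. Of the probes called, 44.0% were higher with imatinib, as against 26.3% under median centring and 19.3% with spike-in scaling. The median of all tested probes was -0.01, and it became -0.19 under median centring and -0.28 with spike-in scaling. The median over the 10 genes became 0.81 and 0.71 under the same settings, about 1 log2 unit above the median of all probes. These settings shift every difference by the same amount, so that gap could not change. With normexp, which can change it, the medians were 0.80 for the 10 genes and 0.03 for all probes. No member probe that passed changed its direction under any setting run.

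The wider pathway was described by 6 lists of genes, which were chosen with earlier results of these data known. Of 18 tested HIF subunits and regulators (Hif1a and Egln3 among them), 1 rose and 5 fell (5.56% and 27.8%, against 18.8% and 22.8% of all genes), with a median of -0.16. Epas1, the second alpha subunit, and Arnt, the shared partner, differed by 0.06 each (adjusted p = 0.64 and 0.45) and turned negative under median centring and spike-in scaling. A second Arnt probe fell by 0.42. Egln1, the main oxygen sensor, differed by 0.16 (adjusted p = 0.24), and the ligase gene Vhl by 0.22 (adjusted p = 0.053). Vhl passed under 5 of the alternatives, and both turned negative with spike-in scaling. Hif1an, the asparagine hydroxylase that blocks HIF activity, fell by 0.27 (adjusted p = 0.033), and did not pass when any 1 array was left out (adjusted p 0.077 to 0.18), with dim probes kept (0.12) or with the replicate number as a block (0.081). It was -0.44 under median centring and -0.54 with spike-in scaling.

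Among the same regulators, Siah2, a ubiquitin ligase that degrades Egln proteins, fell by 1.38 (SE 0.067, adjusted p = 0.0012). Its values were 1.00 and 0.90 with imatinib and 2.33 and 2.32 without. Siah1a, a related ligase, rose by 0.62 (adjusted p = 0.0055), or 0.36 with normexp and 0.35 with spike-in scaling. Hif3a, a HIF family member with inhibitory forms, fell by 0.79 (adjusted p = 0.0050), and a second probe of it at -0.56 did not pass. Cul2, the scaffold of the VHL ligase, fell by 0.49 (adjusted p = 0.010) on its brightest of 4 probes, which ranged from -0.70 to 0.20. Cul2 did not pass when imatinib 1 (adjusted p = 0.068) or imatinib 2 (0.060) was left out, and it was -0.76 with spike-in scaling. The number of falls in this list was 2 without either imatinib array and 3 without either control array, and 9 and 10 under median centring and spike-in scaling.

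HIF targets of glucose uptake and glycolysis went both ways. Of 20 tested (Slc16a3 among them), 4 rose and 6 fell, with a median of -0.02. Beside these shares, 20% and 30%, stand 18.8% and 22.8% for all genes. Slc2a3, the glucose transporter GLUT3, fell by 0.90 (SE 0.068, adjusted p = 0.0031), from 0.47 and 0.54 to -0.43 and -0.34. Aldoc, an aldolase, rose by 0.79 (adjusted p = 0.0039), and Pgam1, phosphoglycerate mutase, fell by 0.50 (adjusted p = 0.0079), though not when imatinib 1 (0.060) or imatinib 2 (0.057) was left out. It was -0.76 with spike-in scaling. Named after their values were seen, Pfkp and Pfkfb3 rose by 0.32 and 0.28 (adjusted p = 0.018 and 0.026). Neither was called higher under median centring or with spike-in scaling. Slc2a1 differed by 0.10 (adjusted p = 0.33). The glycolytic enzyme genes Hk2, Pgk1, Ldha and Eno1, likewise named, fell by 0.44, 0.41, 0.32 and 0.31 (adjusted p 0.011 to 0.025). With spike-in scaling they were -0.71, -0.68, -0.58 and -0.58, and under median centring Ldha and Eno1 were -0.49 and -0.48. None of these 4 passed when an imatinib array was left out (adjusted p 0.068 to 0.14) or when dim probes were kept (0.053 to 0.095). Eno1 also did not pass when a control array was left out (0.051 and 0.064), nor Ldha without control 1 (0.068), and neither passed with the replicate number as a block (0.067 and 0.062). Bsg, from the list of partners and also chosen after its value was seen, encodes the chaperone that carries MCT4 to the membrane. It differed by -0.15 (adjusted p = 0.11), and it passed at -0.33 under median centring, at -0.42 with spike-in scaling and with trended robust variances (adjusted p = 0.029). Without imatinib 1 or without imatinib 2, 2 genes of the glycolysis list rose and 1 fell. Without control 1 the counts were 3 and 4, and without control 2 they were 2 and 5. Spike-in scaling gave 2 rises and 10 falls.

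Targets linked to mitochondria, mitophagy and growth control included many rises. Of 18 tested, 12 rose and 2 fell (66.7% and 11.1%, against 18.8% and 22.8% of all genes), with a median of 0.55. Ndrg1 and Bnip3 are among them. Stc2, a secreted stress glycoprotein, rose by 3.27 (SE 0.13, adjusted p = 0.00097), from -4.26 and -4.60 to -1.17 and -1.15, and the size was 1.95 with normexp. Ak4, a mitochondrial adenylate kinase (Ak3l1 in the files), rose by 2.11 (adjusted p = 0.0014), but by 0.78 with normexp. Plin2, a lipid droplet coat protein, rose by 1.08 (adjusted p = 0.0017). Chosen after their values were seen, Ankrd37 and the mTORC1 inhibitor Ddit4 rose by 0.93 and 0.83. The 2 falls were Higd1a at -0.46 and Lonp1 at -0.30 (adjusted p = 0.0084 and 0.028). Bnip3l, the relative of Bnip3 with the same role, rose by 0.30 (adjusted p = 0.022), but did not pass under median centring (adjusted p = 0.32), spike-in scaling (0.81), the replicate number as a block (0.067), with dim probes kept (0.088) or when any 1 array was left out (0.057 to 0.13). When 1 array was left out, 9 or 10 genes of the list rose. The falls were 0 without either imatinib array, 1 without control 1 and 3 without control 2, and 5 with either median centring or spike-in scaling.

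Targets for vessels, matrix, pH and iron had 7 rises and 2 falls among 16 tested of 21 (43.8% and 12.5%, against 18.8% and 22.8%). Vegfa, Adm, P4ha1, P4ha2 and Car9 made up 5 of those rises. The others were Hmox1, heme oxygenase, at 2.37 (SE 0.063, adjusted p = 0.00071) with a second probe at 1.19, and Pgf, placental growth factor, at 1.29 (adjusted p = 0.013). Pgf did not pass when imatinib 2 was left out (adjusted p = 0.059) or with dim probes kept (0.052), and its size was 0.74 with normexp. The median of this list, 0.23, turned to -0.03 with spike-in scaling. The 2 falls were lost when any 1 array was left out.

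With the 10 genes taken out, the 4 HIF lists together had 16 rises and 15 falls among 62 tested genes. These shares, 25.8% and 24.2%, stand beside 18.8% and 22.8% for all genes, and the median was 0.03. Under median centring and spike-in scaling the falls numbered 25 and 29. They numbered 3 without either imatinib array, and 8 without control 1. The rises numbered 10 without imatinib 2.

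**Figure D3:**
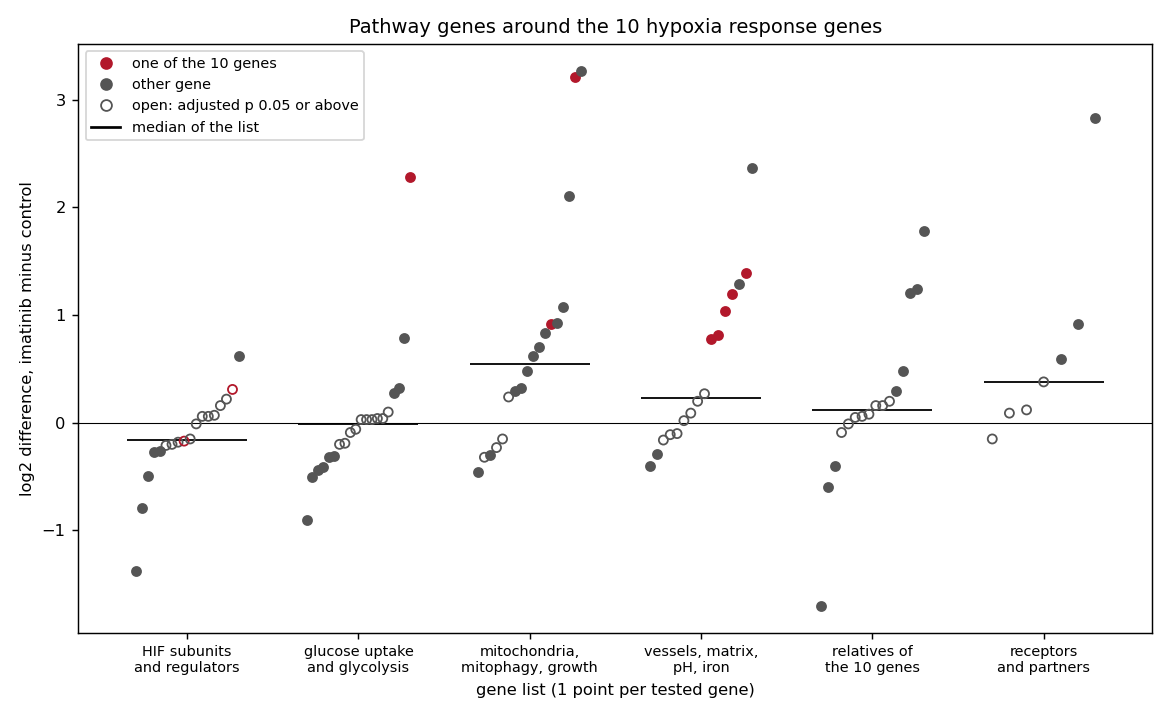
Log2 difference, imatinib minus control (y axis), of every tested gene in the 6 lists (x axis), with 1 point per gene, filled where the adjusted p was under 0.05, red for the 10 genes, and a line at the median of each list. The list for mitochondria, mitophagy and growth control has its median at 0.55 with 12 rises, and in the glycolysis list Slc16a3 at 2.28 is the highest point and Slc2a3 at -0.90 the lowest.

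Relatives of the 10 genes went both ways, with 5 rises and 3 falls of 16, or 31.2% and 18.8%, against 18.8% and 22.8% of all genes (median 0.12, or -0.05 under median centring and -0.15 with spike-in scaling). Slc16a7, the monocarboxylate transporter MCT2, rose by 1.78 (adjusted p = 0.0013), or 0.91 with normexp, and its probe holds a simple repeat of 12 bases. Its 3 tested probes ranged from 1.28 to 2.48, and 2 passed. Ndrg2, a relative of Ndrg1 measured by a dim probe, rose by 1.24 (adjusted p = 0.0014), or 0.41 with normexp. Car2, the cytosolic carbonic anhydrase II, fell by 1.70 (SE 0.10, adjusted p = 0.0019), opposite to Car9. Vegfc, a lymphatic growth factor, differed by 1.21 (adjusted p = 0.035), but its probe was well above background on only 1 of the 2 control arrays. It did not pass when imatinib 1 (adjusted p = 0.12) or imatinib 2 (0.098) was left out, or with dim probes kept (0.10), and its size was 0.34 with normexp. The rises in this list numbered 2 without either imatinib array and 3 under median centring and spike-in scaling.

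Receptors and partners of the secreted members had 3 rises and no fall among 7 tested of 9 (42.9% and 0%, against 18.8% and 22.8%). Ramp3, a subunit of the adrenomedullin receptor, rose by 2.83 (SE 0.064, adjusted p = 0.00068), from -2.88 and -2.97 to -0.10 and -0.10. Ramp1, its relative, rose by 0.92 (adjusted p = 0.014) on the brighter probe and by 2.15 on another, and Nrp2, a VEGF co-receptor, rose by 0.59 (adjusted p = 0.0073), or 0.32 with spike-in scaling. Neither Ramp1 nor Nrp2 passed when an imatinib array was left out (adjusted p 0.051 to 0.065), which left 1 rise, and Ramp1 did not pass with dim probes kept (0.054). Calcrl, the other part of the adrenomedullin receptor, was not tested.

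The labelled tissue is a mixture of cells, so more or fewer cells of a type and more or less RNA per cell cannot be told apart. Markers of other cell types moved with imatinib on the same arrays. All 13 T cell markers were well above background on all 4 arrays. Their summed signal, as multiples of that percentile, was 53.8 on each imatinib array and 26.6 and 26.0 on the control arrays, with 11 rises and no fall. Of 13 macrophage markers, 8 were well above background on all arrays and 4, C1qa, C1qc, Fcgr1 and Mertk, on none. The sum over all 13 was 9.36 and 9.39 with imatinib and 4.39 and 4.20 without, and 5 of 9 tested rose. Most of that gain came from 2 probes. Adgre1, which encodes F4/80 and is named Emr1 on the array, rose by 3.59, and Marco, a scavenger receptor, rose by 2.80. Without them the sum was 3.93 and 4.33 with imatinib and 3.69 and 3.61 without. Mrc1, Cd14 and Cd68 also rose, while Csf1r (0.26), Mpeg1 (-0.16), C1qb (-0.03) and Siglec1 (-0.41) did not pass. Cd8a of killer T cells rose by 2.42, while the T cell markers Cd4 (0.05) and Cd247 (0.27) did not pass. Thy1 made up 46.6% of the T cell sum with imatinib and 59.3% without. Leaving Thy1 out, the T cell sum was 28.8 and 28.7 against 11.2 and 10.3. The genes with a value in this account of markers were picked out after their values were seen. All 10 B cell markers were well above background, with sums of 365 and 370 against 420 and 393, and 6 fell and 1 rose. Cd22 had the largest fall, 1.06, and Cr2 was the gene that rose, by 0.53. Cd79a (-0.07), Cd79b (-0.02) and Blnk (0) did not pass. Cd79b made up 45.9% of the B cell sum with imatinib and 42.2% without.

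Neutrophil markers (6 of 9 above background on all arrays) had 4 rises and 1 fall among 7 tested, with a median of 0.47. S100a8, a calcium-binding protein abundant in neutrophils, read -2.58 and -2.50 with imatinib and -5.69 and -5.88 without. It rose by 3.24 (9.48-fold, adjusted p = 0.00072), or 1.38 with normexp. Its partner S100a9 rose by 1.95 (adjusted p = 0.0067), or 0.53 with normexp, and its probe was well above background on 1 of the 2 control arrays. Mpo and Camp rose by 0.94 and 0.47. Ly6g fell by 0.60 (adjusted p = 0.0088), though not without imatinib 1 (0.051). The summed signal, 92.1 and 94.2 with imatinib and 86.3 and 73.0 without, does not show these changes, because Csf3r (0.25, adjusted p = 0.13) made up 96.7% of it with imatinib and 95.3% without. Without Csf3r the sum was 2.94 and 3.25 against 3.84 and 3.57.

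Endothelial and stromal markers (2 of 7 above background on all arrays) had no rise and 1 fall among 3 tested, with a median of -0.73. Pecam1 fell by 0.77 (adjusted p = 0.012), or 0.42 with normexp, but did not pass without control 2 (adjusted p = 0.054) or with dim probes kept (0.051). Cdh5 at -0.73 and Kdr at 0.12 did not pass. Kdr made up 97.2% of the sum with imatinib and 95.2% without, and the sum of 5.21 and 5.64 against 5.77 and 4.50 was 0.137 and 0.167 against 0.248 and 0.244 without it. Of 5 natural killer markers, Eomes alone was above background on all arrays and rose by 0.90, and the other 4 were on none. The sum, mostly Eomes, was 0.225 and 0.203 against 0.115 and 0.129. Of 3 erythroid markers tested, 1 rose, Hba-a1 by 0.61, and it made up 92.4% of a sum (4 of 5 genes) of 0.748 and 0.817 against 0.527 and 0.513. The part of these cell types in the differences of the 10 genes was not tested.

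**Figure D4:**
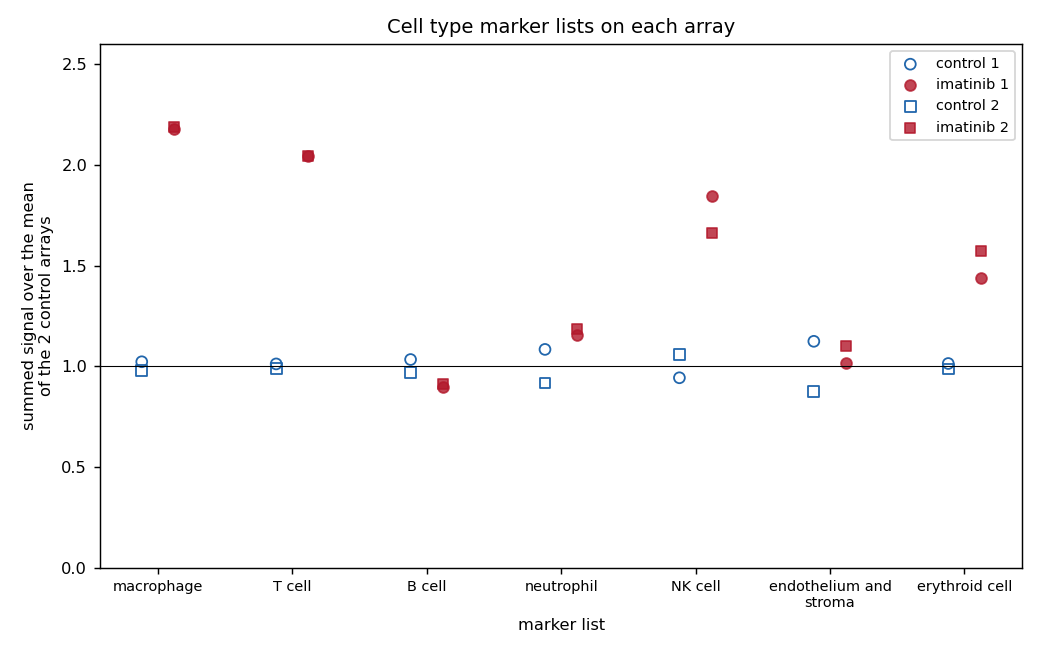
Summed signal of each marker list on each array, divided by the mean of the 2 control arrays (y axis, from 0), for 7 lists of cell types (x axis), with imatinib arrays filled and control arrays open. The macrophage and T cell points of both imatinib arrays lie at about 2 times the control mean, and the B cell points of the imatinib arrays lie just below the controls. Single genes carry some lists, with Csf3r at 96.7% of the neutrophil sum and Kdr at 97.2% of the endothelial and stromal sum on the imatinib arrays, and Adgre1 and Marco carry most of the macrophage gain.

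The 4 arrays lay on 1 slide, with the controls at positions 1 and 3 and the imatinib samples at positions 2 and 4. Between 24983 and 26741 of the probes were well above background on an array, and no spot was saturated. All 16 member probes were well above background on all 4 arrays, and none shares a run of 15 bases with more than 1 probe of another gene. The scanner's own error estimate was under 12% of the processed signal on every array for 12 of the 16 probes. The others, at 12.2% to 16.3% on at least 1 array, were the dim probes of P4ha1, P4ha2, Egln3 and Bnip3. The number of arrays limits the precision, and with 2 arrays on each side the smallest two-sided p of an exact permutation test is 0.333.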

How the data were processed

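Spleen cell RNA was hybridised to 4 Agilent 1-colour arrays of design 026655. The authors deposited scanner intensity for each spot, which Feature Extraction 9.1.3.1 had background-subtracted and detrended per the file headers. They also deposited a table of log2 values from GeneSpringGX, per the labels, used here as an alternative. Its column medians were -3.99 and -3.92 with imatinib and -4.10 and -4.17 without, and its values differed from those computed here by a median of -0.01 or -0.02 on each array, so its scale, centring and direction are known.

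The log2 processed signals of unmarked spots were averaged by probe, and each array was scaled to its 75th percentile over non-control probes. Probes entered the fit when both arrays of either group were well above background (25375 probes, with 62 left out for a marked value). limma 3.58.1 in R 4.3.3 compared the groups two-sided, with no other term (2 residual and 2.06 prior degrees of freedom), after being tested on simulated data. SE, SD and intervals are on the log2 scale. A gene is given by its brightest tested probe.

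The members, lists and tests were chosen with earlier results of these data known. The rule named the members, in each list the 4 called genes that changed most (fewer where fewer were called), and Arnt, Epas1, Vhl, Egln1 and Hif1an. Genes marked as chosen after their values were seen are examples and do not represent their lists. Symbols were matched through RefSeq of GRCm38.p6. Alternatives were normexp (offset 50), quantile, median and spike-in scaling (8 controls), keeping dim probes, a stricter filter, a replicate block, leaving out each array, the deposited table, trended robust variances, and averaging a gene's probes.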

Additional observations from a re-analysis of the deposited data

How the results depend on the processing

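All alternatives were planned. The 10 genes had 8 or 9 rises under each of them, and 1 fall, Hif1a, with spike-in scaling. Their median difference of 0.98 became 0.80 with normexp, 0.81 under median centring, 0.71 with spike-in scaling and 0.90 as a mean over probes, and ranged from 0.97 to 0.99 with an array left out. Of all probes, 10747 were called (4734 higher, 6013 lower), and 5186 when dim probes were kept (2812 higher, 2374 lower). Lower probes numbered 9251 under median centring, and spike-in scaling gave 2802 higher and 11739 lower. With an array left out, the lone array of its group was taken to vary like the other group. This gave 4128 to 8984 calls, 2377 to 4560 higher and 1704 to 4424 lower. The other genes of the HIF lists had 25 falls under median centring, 29 with spike-in scaling and 6 with dim probes kept. With an array left out they had 3 to 11 falls, 10 to 14 rises and a median of -0.08 to 0.04, and their median was -0.15 under median centring and -0.24 with spike-in scaling.

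Some differences that did not pass changed sign. Egln3 probe A_55_P1960916 was -0.0037 without imatinib 1 and 0.63 without imatinib 2 (adjusted p = 0.041). Epas1 and Arnt were each -0.11 under median centring and -0.20 with spike-in scaling, and Epas1 was -0.05 without control 2 and 0.18 without control 1. Egln1 was -0.02 under quantile normalization and under median centring and -0.11 with spike-in scaling, and Vhl was -0.05 with spike-in scaling. The cause was not tested.

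Same-numbered arrays did not deviate together (r = -0.069 over the tested probes). Whether the replicate numbers stand for paired samples is not said by the labels, and this value cannot decide it. With the number as a block, 3685 probes were higher and 3958 lower, and 8 other HIF list genes fell. No call of a member probe changed with the block. Signals under 3 times the local background on all arrays limit 6 member probes: both P4ha1 probes, the brighter of which gives that gene's call, P4ha2, both Egln3 probes and the third Bnip3 probe.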
